A study of Mus musculus with 16 samples.

Results

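The collagen genes of the mouse ileum were taken as every row of the count table whose symbol has the form Col, a number, a and a number, which found 44 chains among 21965 genes. They were measured by poly(A) RNA-seq in 16 libraries, each from the terminal ileum of a different male C57BL/6 mouse. WT mice were compared with fat-1 littermates, which are heterozygous for a Caenorhabditis elegans n3 fatty acid desaturase that is expressed in all tissues. Both received a control or an EtOH-containing Lieber-DeCarli liquid diet. Control mice were pair-fed (PF), with intake matched to that of EtOH mice on the day before. Their diet was isocaloric, with maltose dextrin in place of EtOH. There were 5 fat-1 EtOH, 4 fat-1 PF, 3 WT EtOH and 4 WT PF mice, all adult, and EtOH was raised stepwise to 6%, which was held for 3 weeks. The mice of every group were fed liquid diet alone, and the transgene itself was not analysed here. The piece of ileum was used whole, so that epithelium, stroma and muscle contributed RNA, and fewer cells of a type cannot be told apart from less RNA per cell.

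Collagens are proteins of the extracellular matrix in which 3 chains wind into a triple helix. Fibrillar collagens, led by types I and III, assemble into the load-bearing fibrils of the submucosa and muscle wall, type IV collagen forms the sheet-like network of basement membranes under the epithelium and around muscle and vessels, and type VI collagen forms beaded filaments between them. FACIT collagens decorate the surface of fibrils, multiplexins link basement membranes to the stroma, and the transmembrane collagens stay at the cell surface. In the intestine most of these chains come from fibroblasts and smooth muscle, and their deposition is a hallmark of wound repair and fibrosis.

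Fibrillar collagens comprised 11 of the 44 chains, basement membrane (type IV) collagens 6, multiplexins 2, beaded filament (type VI) collagens 6, FACIT collagens 9, short-chain network collagens 3, transmembrane collagens 4, and the anchoring fibril and remaining collagens 3. After removal of genes with low counts, 31 chains were tested. The 13 chains that did not pass this filter were Col2a1, Col11a1, Col4a3, Col4a4, Col6a6, Col9a1, Col9a2, Col9a3, Col19a1, Col22a1, Col10a1, Col17a1 and Col26a1, among them the chains of cartilage (Col2a1, Col9a1, Col10a1) and of epidermal hemidesmosomes (Col17a1). Col19a1 and Col10a1 had 1 read each over the 16 libraries. The libraries held 8422645 to 11438539 counted reads, and 3 reads corresponded to 0.246 to 0.421 CPM, the counts of a gene scaled to the size of its library.

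Libraries stood apart from others of their group in genes that mark position along the gut, and these libraries bear on the collagens. Summed markers of the proximal small intestine, among them lactase (Lct), were between 1850 and 50300 CPM in the 8 PF libraries and between 19.6 and 431 CPM in the 8 EtOH libraries, with no overlap. Gata4 and Lct were at or below 1.11 and 2.3 CPM in each EtOH library. Diet and the position marked by these genes therefore cannot be told apart in any comparison of EtOH with PF mice. Markers of the large intestine were far higher in WT EtOH 2 (5390 CPM), fat-1 EtOH 3 (13500 CPM) and fat-1 EtOH 4 (14500 CPM) than in the other 13 libraries (107 to 475 CPM), and the ileal bile acid genes Fabp6 and Slc10a2 were at 26.1 and 7.58 CPM in fat-1 PF 2 and at 3.31 and 3.56 CPM in fat-1 PF 4. Summed ileal markers were also low in fat-1 EtOH 3 and 4 (512 and 1120 CPM). They were at 1350 to 6320 CPM in all libraries but these and fat-1 PF 2 and 4. Collagen calls that were lost or gained without the 5 libraries named here are given with their comparison, and the other lists are given as counts.

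**Figure D1:**
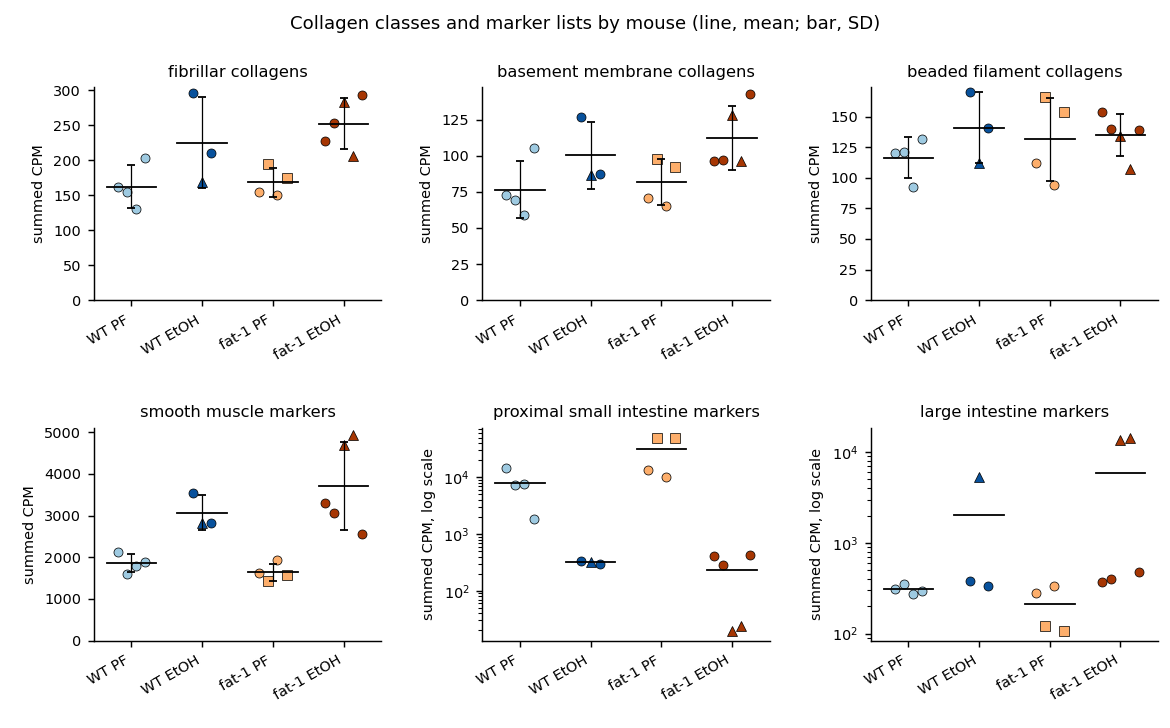
Summed CPM of 3 collagen classes (top) and of 3 marker lists (bottom) in each library of the 4 groups, with the mean as a line and, on the linear panels, the SD as a bar; the lower middle and right panels have log axes. Triangles are WT EtOH 2 and fat-1 EtOH 3 and 4, which are high in large intestine markers, and squares are fat-1 PF 2 and 4, which are low in ileal markers; the smooth muscle sums of the EtOH libraries (2570 to 4930 CPM) all lie above those of the PF libraries (1440 to 2130 CPM).

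Fibrillar, type VI and type IV chains made up most of the collagen mRNA. Levels were compared between chains as CPM per kb of the principal transcript, averaged over the 16 libraries. Col3a1, the chain of type III collagen, was the highest at 16.9 CPM per kb, followed by Col6a1 (11.4), Col6a2 (8.9), Col4a1 (7.88), Col1a2 (7.73), Col4a2 (5.14), Col18a1 (3.98) and Col1a1 (3.29). Col3a1 alone held 18.3% of the collagen CPM per kb, between 15.3% and 21.4% in single libraries. The least abundant of the tested chains was Col24a1 at 0.178 CPM per kb. Among the 13 chains that were not tested, the highest was Col9a2 at 0.217 CPM per kb.

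**Figure D2:**
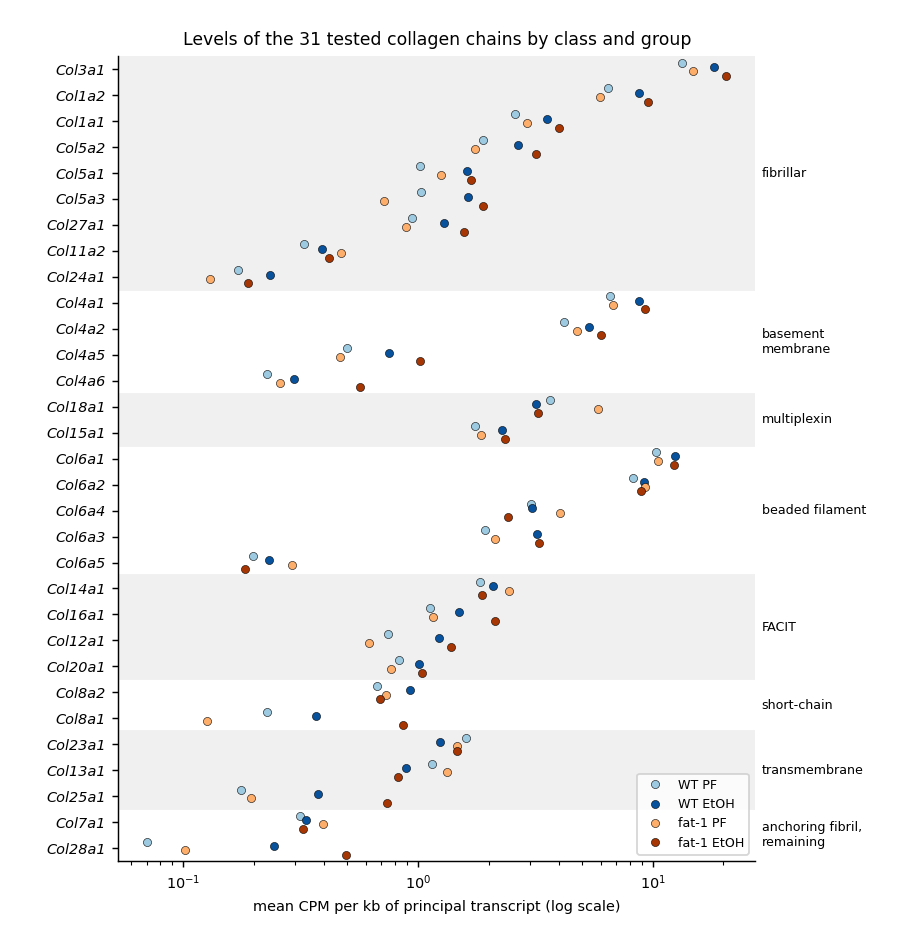
Mean CPM per kb of the principal transcript (log axis) of the 31 tested collagen chains in the 4 groups, 1 point per group, ordered by class and by level within the class. Col3a1 is the highest chain, and within most fibrillar chains the EtOH points lie to the right of the PF points, with Col11a2 as an exception in fat-1 mice.

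Chains that assemble into the same or neighbouring fibrils and sheets were compared as ratios. The ratio of Col4a1 to Col4a2, the chains of the common type IV trimer, which lie head to head on chromosome 8, was between 1.37 and 1.72 per kb in all 16 libraries. Col1a1 to Col1a2, which form type I collagen, ranged from 0.317 to 0.59, and Col3a1 to Col1a2 from 1.74 to 2.68. For each of these 3 ratios the EtOH and PF mice overlapped in both genotypes.

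Upstream sequences were available in RefSeq (GRCm38.p6) for 35 of the 44 chains, as 38 windows of 250 bases that end at a transcription start. Col3a1, Col5a1, Col27a1, Col6a3, Col8a1, Col25a1 and Col28a1 are shown because each was called higher in EtOH mice below averaged over genotypes and its window holds no annotated exon. The windows of Col27a1 and Col25a1 lie inside the annotated gene, which begins at chr4:63214004 and chr3:130131501, and end at a later transcription start. Capitals mark a CCAAT box with the letters of its name, a TATA box with the letters TATAAA or a GC box with the letters GGGCGG, each searched on both strands, and these motifs do not overlap in the windows shown. Sequences run 5′ to 3′ on the strand of the gene. They lie at chr1:45311288-45311537 on the plus strand (Col3a1), chr2:27886175-27886424 on the plus strand (Col5a1), chr4:63215162-63215411 on the plus strand (Col27a1), chr1:90843972-90844221 on the minus strand (Col6a3), chr16:57754738-57754987 on the minus strand (Col8a1), chr3:130180595-130180844 on the plus strand (Col25a1) and chr6:8192618-8192867 on the minus strand (Col28a1).
Col3a1: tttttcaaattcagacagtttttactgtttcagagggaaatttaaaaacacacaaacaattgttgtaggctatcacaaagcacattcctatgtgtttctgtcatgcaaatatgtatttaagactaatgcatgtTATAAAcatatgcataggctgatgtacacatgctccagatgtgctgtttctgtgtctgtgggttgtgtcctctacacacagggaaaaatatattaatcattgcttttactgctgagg
Col5a1: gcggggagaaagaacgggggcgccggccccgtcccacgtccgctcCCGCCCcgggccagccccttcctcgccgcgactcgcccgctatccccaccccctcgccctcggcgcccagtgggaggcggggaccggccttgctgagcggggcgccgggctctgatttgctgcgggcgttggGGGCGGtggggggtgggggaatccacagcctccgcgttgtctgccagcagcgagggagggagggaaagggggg
Col27a1: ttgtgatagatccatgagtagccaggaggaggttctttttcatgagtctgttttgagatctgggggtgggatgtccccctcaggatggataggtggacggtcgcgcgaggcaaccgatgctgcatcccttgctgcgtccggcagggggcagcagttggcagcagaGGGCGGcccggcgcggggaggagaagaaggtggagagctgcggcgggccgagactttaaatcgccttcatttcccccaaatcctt
Col6a3: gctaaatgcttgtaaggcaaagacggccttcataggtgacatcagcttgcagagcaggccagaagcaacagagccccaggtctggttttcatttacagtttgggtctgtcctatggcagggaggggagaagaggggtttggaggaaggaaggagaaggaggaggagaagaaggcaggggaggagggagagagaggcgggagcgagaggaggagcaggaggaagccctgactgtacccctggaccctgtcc
Col8a1: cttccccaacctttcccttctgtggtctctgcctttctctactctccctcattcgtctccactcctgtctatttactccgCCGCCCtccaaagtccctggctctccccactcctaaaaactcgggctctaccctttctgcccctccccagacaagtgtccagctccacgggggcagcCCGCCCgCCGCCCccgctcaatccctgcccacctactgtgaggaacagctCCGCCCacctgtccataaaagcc
Col25a1: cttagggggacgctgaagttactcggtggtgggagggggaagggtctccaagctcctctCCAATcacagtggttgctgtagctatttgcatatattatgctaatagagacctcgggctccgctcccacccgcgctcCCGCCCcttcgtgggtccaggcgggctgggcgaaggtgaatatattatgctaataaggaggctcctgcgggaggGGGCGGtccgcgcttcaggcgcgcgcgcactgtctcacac
Col28a1: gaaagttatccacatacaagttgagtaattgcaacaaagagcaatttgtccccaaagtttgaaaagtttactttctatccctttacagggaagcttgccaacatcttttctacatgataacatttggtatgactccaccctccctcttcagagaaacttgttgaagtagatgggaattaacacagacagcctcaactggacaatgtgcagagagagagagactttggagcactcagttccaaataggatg

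No motif was common to these windows. The Col3a1 window has a TATA box that begins 117 bases before the start, whereas Col5a1 has GC boxes 73 and 205 bases before it and Col27a1 a GC box 85 bases before it. Col8a1 has GC boxes 23, 66, 73 and 170 bases before the start and Col25a1 has them 40 and 114 bases and a CCAAT box 191 bases before it. None of the 3 motifs is in the Col6a3 and Col28a1 windows. A GC box was in 22 of the 38 collagen windows (57.9%) and in 32.7% of all 32851 windows, a CCAAT box in 34.2% against 33.8%, and a TATA box in 13.2% against 12.4%. Of the 11 windows of chains called higher in EtOH mice, 7 held a GC box (63.6%). These shares are descriptions of the letters in the windows, and GC content was not taken into account.

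To examine how collagens differed between EtOH and PF mice with both genotypes weighted equally, the fat-1 and WT contrasts were averaged. In this comparison 14 of the 31 chains were DEGs with higher levels in EtOH mice and none was lower (45.2% and 0.0%), while 18.3% of all genes tested were higher and 17.6% were lower (edgeR, adjusted p of 0.05 or less). The chains that rose were the fibrillar Col1a1, Col1a2, Col3a1, Col5a1, Col5a2 and Col27a1, the type IV chains Col4a1 and Col4a5, Col6a3 of type VI, the FACITs Col12a1 and Col16a1, and Col8a1, Col25a1 and Col28a1. Their log2 fold changes ran from 0.44 (Col4a1) to 2.02 (Col28a1), and the median of the 31 chains was 0.45 against 0.04 over all genes. When the 5 libraries that stand apart were left out, 13 of 30 chains were higher and none was lower (43.3%), with 12.9% of all genes higher and 14.7% lower. Of the 14 chains, 10 were called in both fits. The calls of Col16a1 (0.47, adjusted p = 0.0674), Col4a5 (0.68, adjusted p = 0.0854) and Col25a1 (0.52, adjusted p = 0.356) were lost and Col28a1 was too low to be tested, while Col4a2, Col6a1 and Col6a2 were gained. The summed smooth muscle markers were also apart between the diets (1440 to 2130 CPM in PF, 2570 to 4930 CPM in EtOH mice), all 11 of them were called higher, and their part in the collagen result was not tested.

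In fat-1 mice, 10 of the 31 chains were higher in EtOH than in PF mice (32.3%) and 2 were lower (6.45%), beside 18.7% and 18.8% of all genes tested. The higher chains were Col1a2, Col3a1, Col5a2, Col27a1, Col4a5, Col6a3, Col12a1, Col16a1, Col8a1 and Col25a1, and the lower chains Col18a1 and Col6a4. By class, 4 of 9 fibrillar, 1 of 4 type IV, 1 of 5 type VI, 2 of 4 FACIT, 1 of 2 short-chain and 1 of 3 transmembrane chains rose. For Col1a2, Col5a2, Col6a3, Col12a1, Col16a1 and Col8a1 each EtOH mouse was above each PF mouse, and no tested chain showed the reverse, with 10.6% and 13.4% of all genes apart in these directions. In the remaining 11 libraries, with 3 fat-1 EtOH and 2 fat-1 PF mice, 7 of 30 chains were higher and none was lower (23.3% and 0.0%), with 4.27% and 7.59% of all genes. Col1a2, Col5a2, Col27a1, Col6a3 and Col12a1 were called in both fits, whereas Col5a1 and Col6a1 were gained. The other 7 calls, both lower ones included, were lost. Of these, Col3a1 (0.61), Col16a1 (0.64), Col4a5 (0.64), Col25a1 (0.47) and Col8a1 (1) kept a positive log2 fold change, while Col18a1 (-0.08) and Col6a4 (0.03) were near 0.

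In WT mice, where 3 EtOH mice were compared with 4 PF mice, none of the 31 chains passed the threshold in edgeR, and 0.00724% of all genes were called higher and 0.0724% lower. At an unadjusted p under 0.05 there were 6 of 31 chains, beside 14.1% of all genes. DESeq2 called 1 chain higher, with 0.608% of all genes higher and 1.25% lower, and limma voom with quality weights called 11 higher, with 9.86% higher and 10.4% lower. Of the 31 fold changes 28 were positive, with a median of 0.41 against 0.01 over all genes. Col12a1 and Col28a1 were higher in each EtOH than in each PF mouse and Col23a1 was lower, while 12.2% and 12.1% of all genes were apart in these directions. Col5a1, Col12a1 and Col6a3 were called higher without the 5 libraries, which here removes WT EtOH 2, and 1.65% of all genes were then higher and 1.76% lower.

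**Figure D3:**
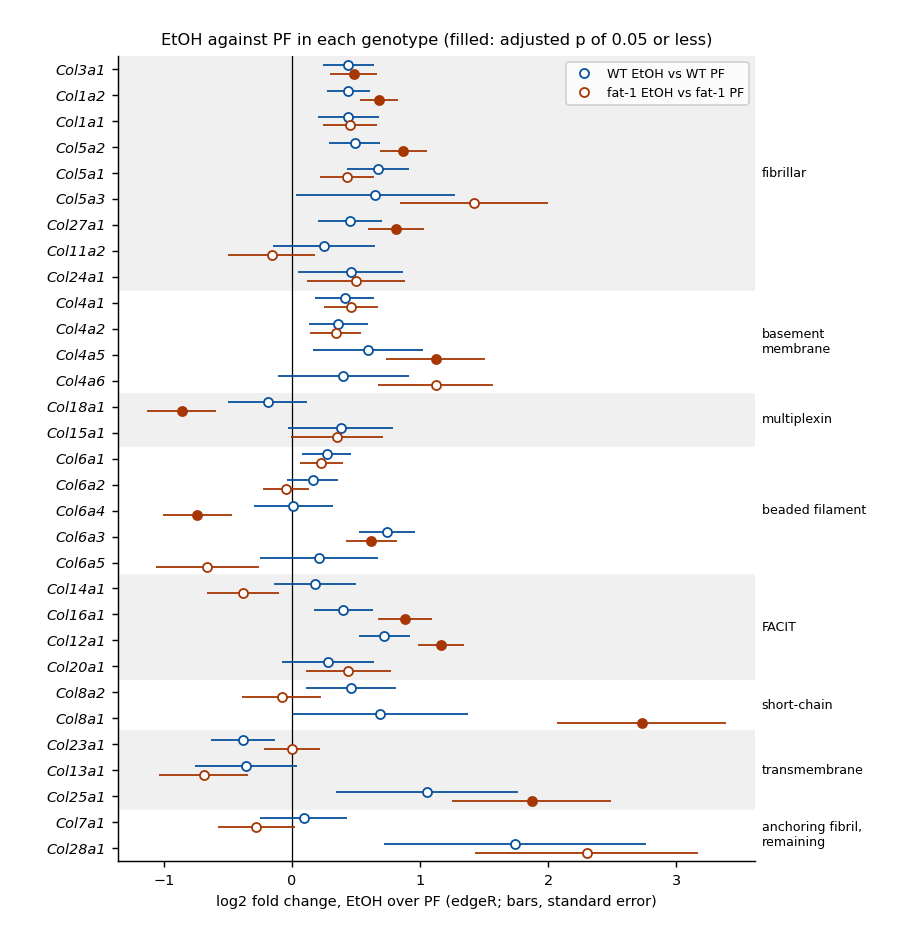
Log2 fold change of EtOH over PF with its standard error (edgeR) for the 31 tested chains, in WT (blue) and fat-1 mice (brown); filled points have an adjusted p of 0.05 or less. No WT point is filled, 28 of 31 WT points lie to the right of 0, and the 12 filled fat-1 points include Col18a1 and Col6a4 on the left.

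The difference between genotypes was tested directly. Neither 31 chains in fat-1 PF against WT PF mice nor 31 in fat-1 EtOH against WT EtOH mice gave a call in edgeR or DESeq2. At an unadjusted p under 0.05 there was 1 chain in each comparison in edgeR, Col18a1 in PF mice (log2 fold change 0.69, SE 0.29) and Col16a1 in EtOH mice (0.5, SE 0.22), where 12.7% and 4.86% of all genes were under this p. Over all genes, 0.0% were called in either direction in PF mice, and 0.0% higher and 0.00724% lower in EtOH mice. For the interaction of genotype and diet no chain was called either, with 0.0% of all genes in both directions, no chain at an unadjusted p under 0.05 in edgeR (8.26% of all genes) and a smallest adjusted p of 0.595. DESeq2 and limma voom also called 0 chains and 0.0% of all genes. Each had 1 chain at an unadjusted p under 0.05, beside 8.96% of all genes in DESeq2 and 9.12% in limma voom. The chains that passed in fat-1 mice and missed the threshold in WT mice are thus not shown to differ in their response to EtOH; for Col12a1 the difference between the responses was 0.44 (SE 0.27) and for Col6a3 it was -0.12 (SE 0.3) on the log2 scale.

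Among the FACIT collagens, Col12a1, a large chain that binds the surface of type I fibrils, was the only chain with no overlap between the diets. It was at 7.43, 8.83, 7.89 and 10.2 CPM in WT PF mice, 6.04, 7.72, 6.56 and 8.22 CPM in fat-1 PF mice, 15.1, 10.8 and 16.5 CPM in WT EtOH mice, and 15.6, 12.2, 20.7, 17.4 and 13.9 CPM in fat-1 EtOH mice. All 8 EtOH mice were above all 8 PF mice, which was true of no other tested chain and of 3.13% of all genes, with 4.66% apart in the other direction. The log2 fold change averaged over genotypes was 0.94 (SE 0.13, adjusted p = 0.00034), or 1.92-fold. In fat-1 mice it was 1.16 (SE 0.18, adjusted p = 0.000477) and in WT mice 0.72 (SE 0.2, adjusted p = 0.175). The call in fat-1 mice held in each of the 27 alternative fits, where the value ran from 0.99 to 1.34. Col14a1, the related FACIT that also binds fibrils, was at 9.89 to 11.5 CPM in WT PF, 9.33 to 19.5 CPM in fat-1 PF, 8.99 to 14.7 CPM in WT EtOH and 6.69 to 15.5 CPM in fat-1 EtOH mice and did not pass the test in fat-1 mice (log2 fold change -0.38, SE 0.28). The ratio of Col12a1 to Col14a1 per kb was 0.349 to 0.437 in WT PF and 0.45 to 0.904 in WT EtOH mice, and 0.195 to 0.32 in fat-1 PF and 0.417 to 1.45 in fat-1 EtOH mice, apart within each genotype.

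Col16a1, a FACIT found near muscle and basement membranes, was at 5.35, 6.45, 4.44 and 7.38 CPM in WT PF, 5.09, 6.18, 6.83 and 6.01 CPM in fat-1 PF, 8.51, 9.03 and 5.97 CPM in WT EtOH, and 10.1, 8.67, 15.3, 12.5 and 8.81 CPM in fat-1 EtOH mice. The fat-1 EtOH mice were above the fat-1 PF mice, and fat-1 EtOH 3 and 4, high in large intestine markers, were the highest of all. It rose in fat-1 mice (log2 fold change 0.88, SE 0.21, adjusted p = 0.00539), and without the 5 libraries the value was 0.64 (adjusted p = 0.118). Col20a1, the remaining tested FACIT, was at 2.01 to 7.05 CPM over all mice and did not pass the test in any comparison.

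Of the fibrillar collagens, 6 of 9 tested chains rose with EtOH when the genotypes were averaged. In fat-1 mice their summed level was 150 to 195 CPM on PF and 206 to 293 CPM on EtOH, without overlap, and in WT mice it was 130 to 204 CPM on PF and 169 to 296 CPM on EtOH, with overlap. Col1a2, a chain of type I collagen, was at 33.3, 32.6, 31.9 and 40.1 CPM in WT PF, 30.1, 34.1, 28.8 and 34.2 CPM in fat-1 PF, 60.2, 39 and 41.3 CPM in WT EtOH, and 49.1, 45.8, 55.7, 40.1 and 64.8 CPM in fat-1 EtOH mice. Every fat-1 EtOH mouse exceeded every fat-1 PF mouse, and in WT mice the lowest EtOH value lay just under the highest PF value. The increase was 1.61-fold in fat-1 mice (log2 0.68, SE 0.15, adjusted p = 0.00368) and 1.48-fold averaged over genotypes (log2 0.56, SE 0.11, adjusted p = 0.00214).

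Col1a1, the partner chain of Col1a2, was at 16.1, 16.4, 11.2 and 18.1 CPM in WT PF, 17.6, 22.3, 15.3 and 14 CPM in fat-1 PF, 25.6, 16.7 and 20.7 CPM in WT EtOH, and 24.4, 23.3, 20.7, 15.8 and 33.8 CPM in fat-1 EtOH mice. The diets overlapped through fat-1 PF 2 on the high side and through WT EtOH 2 and fat-1 EtOH 4 on the low side. Averaged over genotypes it rose by a log2 fold change of 0.45 (SE 0.16, adjusted p = 0.0426), a call lost in 11 of 16 leave-one-out fits. In fat-1 mice its value was 0.45 (SE 0.21, adjusted p = 0.11), and 0.68 (adjusted p = 0.0226) without the 3 libraries high in large intestine markers.

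Col3a1, the chain of type III collagen, was at 75.8, 73.3, 57.8 and 92.4 CPM in WT PF, 76.7, 95.2, 76.4 and 81.7 CPM in fat-1 PF, 136, 72 and 97.4 CPM in WT EtOH, and 101, 123, 133, 91.8 and 124 CPM in fat-1 EtOH mice. Only fat-1 EtOH 4 fell below the highest fat-1 PF mouse. It rose in fat-1 mice by a log2 fold change of 0.48 (SE 0.18, adjusted p = 0.0454), which kept its call in 7 of 16 fits without 1 mouse and lost it without the 5 libraries (0.61, adjusted p = 0.0594), and averaged over genotypes by 0.46 (SE 0.13, adjusted p = 0.0151), which kept it in 15 of 16.

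Col5a1 and Col5a2, chains of type V collagen, which sets fibril diameter, and Col27a1 rose beside types I and III. Col5a2, whose gene (chr1:45374321-45503282) lies close to Col3a1 (chr1:45311538-45349706), was at 11, 12, 10.1 and 16.9 CPM in WT PF, 12, 13.6, 9.98 and 10.7 CPM in fat-1 PF, 22.9, 13.1 and 16.9 CPM in WT EtOH, and 20, 21.4, 25.6, 18.9 and 19.7 CPM in fat-1 EtOH mice. The fat-1 EtOH mice were clear of the fat-1 PF mice, and the rise of 0.87 (log2, SE 0.18, adjusted p = 0.00266) kept its call in all 27 alternative fits. Col5a1 was at 9.62, 7.92, 6.78 and 9.87 CPM in WT PF, 8.06, 12.2, 8.2 and 13.7 CPM in fat-1 PF, 16.3, 9.66 and 14.8 CPM in WT EtOH, and 14.3, 13.9, 17.1, 10.3 and 15.5 CPM in fat-1 EtOH mice. Its overlap came from fat-1 PF 2 and 4, WT EtOH 2 and fat-1 EtOH 4, all among the 5 libraries that stand apart, and with all 16 libraries it passed when the genotypes were averaged (log2 0.55, SE 0.16, adjusted p = 0.0154) but not in fat-1 mice (0.43, SE 0.21, adjusted p = 0.12). Without the 5 it rose in the average (0.86, adjusted p = 0.00187), in fat-1 mice (0.85, adjusted p = 0.0195) and in WT mice (0.87, adjusted p = 0.0336).

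Col27a1, a fibrillar chain best known from cartilage, was at 8.2, 6, 7.89 and 6.75 CPM in WT PF, 5.19, 6.88, 4.78 and 10.3 CPM in fat-1 PF, 12.3, 7.77 and 9.49 CPM in WT EtOH, and 9.5, 10.1, 14.1, 12.2 and 13.8 CPM in fat-1 EtOH mice. A single PF mouse, fat-1 PF 4, reached into the range of the fat-1 EtOH group. It rose in fat-1 mice (log2 0.81, SE 0.22, adjusted p = 0.0118), with 1.17 (adjusted p = 0.0164) without the 5 libraries. This call held in all 16 fits without 1 mouse and in 10 of 11 other fits, where the lowest value was 0.61. Col5a3 ranged from 1.56 to 14.5 CPM in PF and from 4.47 to 17.4 CPM in EtOH mice, and its log2 fold change of 1.42 in fat-1 mice (SE 0.58, adjusted p = 0.0685) did not pass. Col24a1 and Col11a2 were at or below 3.51 CPM in each mouse and did not pass in any comparison.

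Col11a1, a minor fibrillar chain with too few reads for the fit, had 0 reads in all 4 fat-1 PF mice. It was at 0.219, 0.113, 0.222 and 0.312 CPM in WT PF, 0.537, 0.105 and 0.588 CPM in WT EtOH, and 0.665, 0.765, 1.48, 1.7 and 0.342 CPM in fat-1 EtOH mice. The mean of 0.989 CPM in fat-1 EtOH mice was at least 2.61-fold higher than 3 reads per library in the fat-1 PF mice. The highest were fat-1 EtOH 3 and 4, which are high in large intestine markers. WT EtOH 2, high in them too, was the lowest of the 8 EtOH mice. Col11a1 was singled out for these zeros, so no p is given for it.

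**Figure D4:**
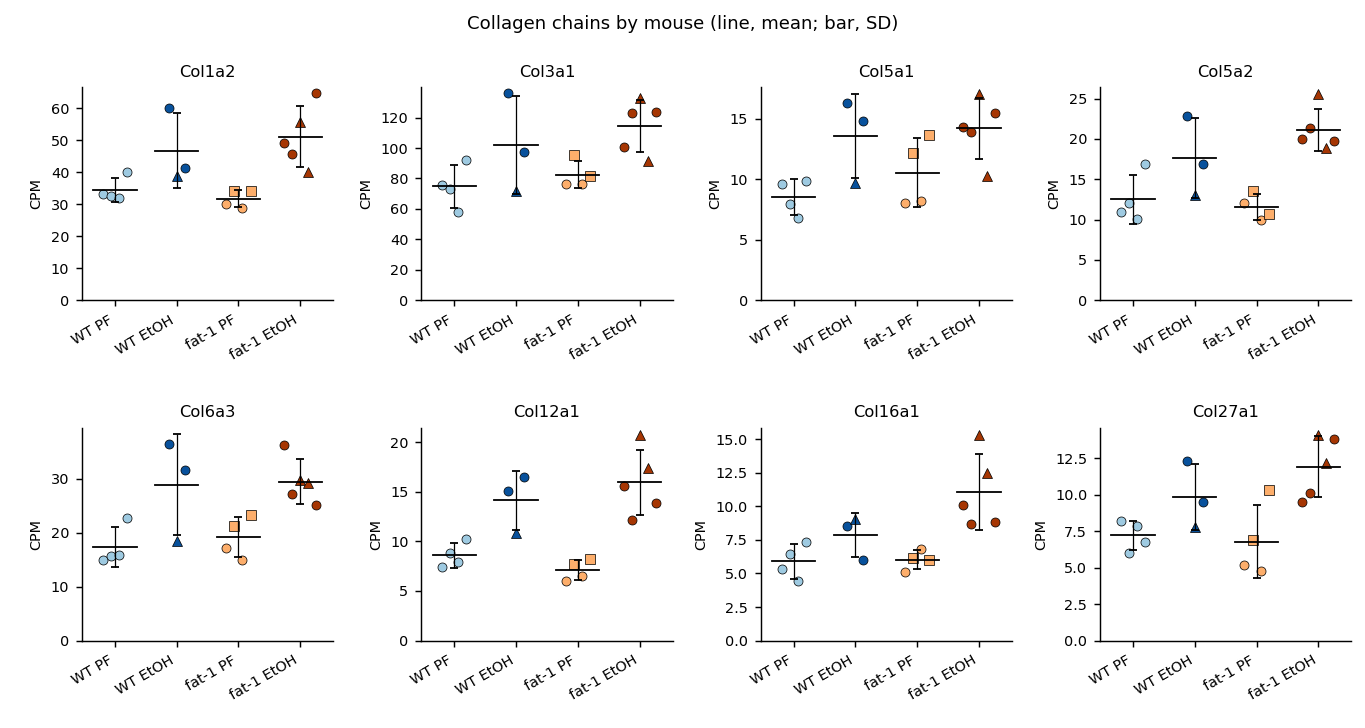
CPM in each mouse of 8 chains that rose in fat-1 mice or averaged over genotypes, with the mean as a line and the SD as a bar; triangles and squares are the 5 libraries that stand apart in gut position markers. For Col12a1 every EtOH mouse lies above every PF mouse, and for Col1a2, Col5a2, Col6a3 and Col16a1 the same holds within fat-1 mice.

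Of the type IV collagens, Col4a1 and Col4a5 were called when the genotypes were averaged, and Col4a1 and Col4a2 without the 5 libraries. Col4a1 was at 40.7, 40.3, 32.2 and 60.6 CPM in WT PF, 37.4, 54, 36.5 and 50.9 CPM in fat-1 PF, 71.5, 51.7 and 50 CPM in WT EtOH, and 54.9, 52.1, 65.7, 50.3 and 84.7 CPM in fat-1 EtOH mice. The PF mice spread into the EtOH range through WT PF 4 and fat-1 PF 2 and 4. Its log2 fold change averaged over genotypes was 0.44 (SE 0.15, adjusted p = 0.0395; 8 of 16 fits without 1 mouse kept the call), and in fat-1 mice it was 0.46 (SE 0.21, adjusted p = 0.0895). Col4a2 was at 22.4 to 36 CPM in WT PF, 24.3 to 36.4 CPM in fat-1 PF, 28.7 to 45.9 CPM in WT EtOH and 29.6 to 50.7 CPM in fat-1 EtOH mice. Its averaged value of 0.35 (SE 0.15, adjusted p = 0.084) did not pass, and without the 5 it was 0.58 (adjusted p = 0.0324).

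Col4a5 and Col4a6, which lie head to head on the X chromosome and form the type IV trimer of smooth muscle basement membranes, were highest in fat-1 EtOH 3 and 4, which are high in large intestine markers. They were lowest of their group in WT EtOH 2, which is high in them too. Col4a5 was at 3.39, 2.72, 1.67 and 5.3 CPM in WT PF, 3.39, 4.35, 2.05 and 2.45 CPM in fat-1 PF, 5.37, 3.99 and 5.38 CPM in WT EtOH, and 3.52, 4.51, 11.2, 9.46 and 4.7 CPM in fat-1 EtOH mice. Its rise in fat-1 mice (log2 1.12, SE 0.39, adjusted p = 0.0355) became 0.5 (adjusted p = 0.282) without the 3 libraries high in large intestine markers. Its averaged rise of 0.85 (SE 0.29, adjusted p = 0.0331) lost its call in 9 of 16 leave-one-out fits. Col4a6 was at 6.4 and 6.42 CPM in fat-1 EtOH 3 and 4 and at 1.09 to 2.78 CPM in the other 14 mice, and its value in fat-1 mice was 1.12 (SE 0.45, adjusted p = 0.0607). Col4a3 and Col4a4, which form another type IV network, were at or below 1.02 CPM in every mouse.

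Of the 5 tested type VI chains, Col6a3 alone was called when the genotypes were averaged with all 16 libraries. Col6a3 was at 15, 15.7, 15.9 and 22.8 CPM in WT PF, 17.2, 21.3, 15 and 23.2 CPM in fat-1 PF, 36.5, 18.5 and 31.7 CPM in WT EtOH, and 36.2, 27.2, 29.7, 29.3 and 25.1 CPM in fat-1 EtOH mice. All EtOH mice except WT EtOH 2 were above all PF mice. It rose in fat-1 mice (log2 0.62, SE 0.2, adjusted p = 0.0241) and averaged over genotypes (0.68, SE 0.15, adjusted p = 0.00343), and without the 5 libraries the averaged value was 0.93 (adjusted p = 0.00199).

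Its partner chains Col6a1 and Col6a2 did not pass with all 16 libraries, and both were called higher in the average without the 5 (0.52, adjusted p = 0.00785, and 0.35, adjusted p = 0.0285). Col6a1 was then also called in fat-1 mice (0.65, adjusted p = 0.0327). Col6a1 was at 45.7, 45.6, 32.3 and 45.2 CPM in WT PF, 38.7, 55, 30.9 and 47.5 CPM in fat-1 PF, 61.3, 42.7 and 48.7 CPM in WT EtOH, and 55.7, 53.2, 49.8, 39.9 and 53.7 CPM in fat-1 EtOH mice, with an averaged log2 fold change of 0.25 (SE 0.13, adjusted p = 0.133). Col6a2 was at 33, 32, 26 and 39.1 CPM in WT PF, 29.7, 47.4, 27.6 and 42 CPM in fat-1 PF, 43.9, 27.3 and 38 CPM in WT EtOH, and 35.2, 35.2, 37.5, 28.7 and 39.9 CPM in fat-1 EtOH mice, with 0.05 (SE 0.14, adjusted p = 0.78). In both, fat-1 PF 2 and 4 were the highest of their group. Col6a3 to Col6a1 per kb was 0.149 to 0.229 in PF and 0.197 to 0.334 in EtOH mice.

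Col6a4, an alternative type VI chain from a cluster on chromosome 9, and Col18a1, the multiplexin of epithelial and vascular basement membranes from which endostatin is cut, were the only 2 chains lower in fat-1 EtOH than in fat-1 PF mice, and these calls rested on the libraries that stand apart. Col6a4 was at 24, 25.8, 17.3 and 22.6 CPM in WT PF, 25.3, 38.9, 17.1 and 37.9 CPM in fat-1 PF, 25.2, 21.3 and 21.3 CPM in WT EtOH, and 23.8, 23.2, 16.2, 8.39 and 17.4 CPM in fat-1 EtOH mice. Col18a1 was at 16.9, 19.8, 14 and 19 CPM in WT PF, 24, 34.7, 16.1 and 37.6 CPM in fat-1 PF, 17.2, 12.7 and 16 CPM in WT EtOH, and 16.5, 16.9, 12.4, 8.48 and 23.2 CPM in fat-1 EtOH mice. For both genes fat-1 PF 2 and 4, with proximal marker sums of 50300 and 49600 CPM, were the highest of the 16 libraries and fat-1 EtOH 4, high in large intestine markers, was the lowest.

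The log2 fold change in fat-1 mice was -0.74 (SE 0.27, adjusted p = 0.0456) for Col6a4 and -0.86 (SE 0.27, adjusted p = 0.0219) for Col18a1. Without the 5 libraries it was 0.03 (adjusted p = 0.946) and -0.08 (adjusted p = 0.813). The ratio of Col6a4 to Col6a3 per kb was 1.39 to 2.23 in fat-1 PF and 0.35 to 1.04 in fat-1 EtOH mice, and 1.21 to 2 in WT PF and 0.823 to 1.41 in WT EtOH mice. Col15a1, the other multiplexin, was at 6.33 to 14.7 CPM in WT PF, 6.04 to 13.5 CPM in fat-1 PF, 8.49 to 18.1 CPM in WT EtOH and 7.14 to 19.7 CPM in fat-1 EtOH mice, and its averaged value of 0.36 (SE 0.27, adjusted p = 0.311) did not pass. Col15a1 to Col18a1 was 0.234 to 0.377 per kb in fat-1 PF and 0.538 to 0.975 in fat-1 EtOH mice, without overlap. It was 0.312 to 0.714 in WT PF and 0.492 to 0.975 in WT EtOH mice, with overlap. Col6a5 was at 0.981 to 3.28 CPM over all mice and did not pass.

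Several of the less abundant chains were highest in fat-1 EtOH 3 and 4. Col8a1, a short-chain collagen of vessel walls, was at 1.2, 0.792, 0.889 and 1.77 CPM in WT PF, 0.742, 0.421, 0.82 and 0.614 CPM in fat-1 PF, 2.42, 1.57 and 1.68 CPM in WT EtOH, and 1.14, 2.13, 6.23, 11.2 and 1.37 CPM in fat-1 EtOH mice. All fat-1 EtOH mice were above all fat-1 PF mice, and fat-1 EtOH 3 and 4, high in large intestine markers, stood well above the rest. WT EtOH 2, high in them too, was the lowest of its group. Its log2 fold change of 2.73 in fat-1 mice (SE 0.66, adjusted p = 0.00588) fell to 1.26 (adjusted p = 0.0299) without the 3 libraries high in these markers and to 1 (adjusted p = 0.169) without the 5. Col8a2, its partner, was at 2.04 to 3.64 CPM in WT PF, 2.23 to 3.83 CPM in fat-1 PF, 3.02 to 4.51 CPM in WT EtOH and 1.61 to 4.34 CPM in fat-1 EtOH mice and had a value of -0.08 (SE 0.31) in fat-1 mice.

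Among the transmembrane collagens, Col25a1 was at 0.219, 0.34, 0.666 and 0.624 CPM in WT PF, 0.954, 0.561, 0.41 and 0.123 CPM in fat-1 PF, 0.448, 1.57 and 0.924 CPM in WT EtOH, and 1.05, 1.28, 3.44, 3.3 and 0.599 CPM in fat-1 EtOH mice. WT EtOH 2 and fat-1 EtOH 3 and 4 were the 3 highest of all libraries. Its rise in fat-1 mice (log2 1.87, SE 0.62, adjusted p = 0.0291) was 0.47 (adjusted p = 0.593) without the 5 libraries. Col23a1 was at 8 to 11.5 CPM in WT PF, 6.7 to 10.2 CPM in fat-1 PF, 6.61 to 7.61 CPM in WT EtOH and 5.13 to 11.4 CPM in fat-1 EtOH mice. Col13a1, found at cell adhesions, was at 2.39 to 5.09 CPM in WT PF, 2.97 to 5.52 CPM in fat-1 PF, 1.78 to 4.12 CPM in WT EtOH and 1.52 to 4.08 CPM in fat-1 EtOH mice. Neither passed in any comparison.

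Col28a1, a von Willebrand A domain collagen of peripheral glia, was at 0.219, 0.453, 0 and 0.52 CPM in WT PF, 0.106, 1.12, 0.137 and 0.368 CPM in fat-1 PF, 1.07, 1.36 and 0.672 CPM in WT EtOH, and 0.76, 0.425, 4.51, 4.19 and 0.599 CPM in fat-1 EtOH mice. It rose averaged over genotypes (log2 2.02, SE 0.67, adjusted p = 0.0297), and without the 3 libraries high in large intestine markers its counts were too low for the fit. Summed markers of enteric neurons and glia were also highest in fat-1 EtOH 3 and 4, at 63.4 and 76.6 CPM. They were at 34.2 CPM in WT EtOH 2, beside 30.2 and 32.3 CPM in the other WT EtOH mice, and at 16.2 to 34.2 CPM in all libraries except fat-1 EtOH 3 and 4. Their part was not tested. Col7a1, the anchoring fibril chain that ties basement membranes to the stroma, was at 1.97 to 3.73 CPM in WT PF, 2.23 to 5.19 CPM in fat-1 PF, 2.02 to 4.12 CPM in WT EtOH and 1.8 to 3.57 CPM in fat-1 EtOH mice and did not pass.

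**Figure D5:**
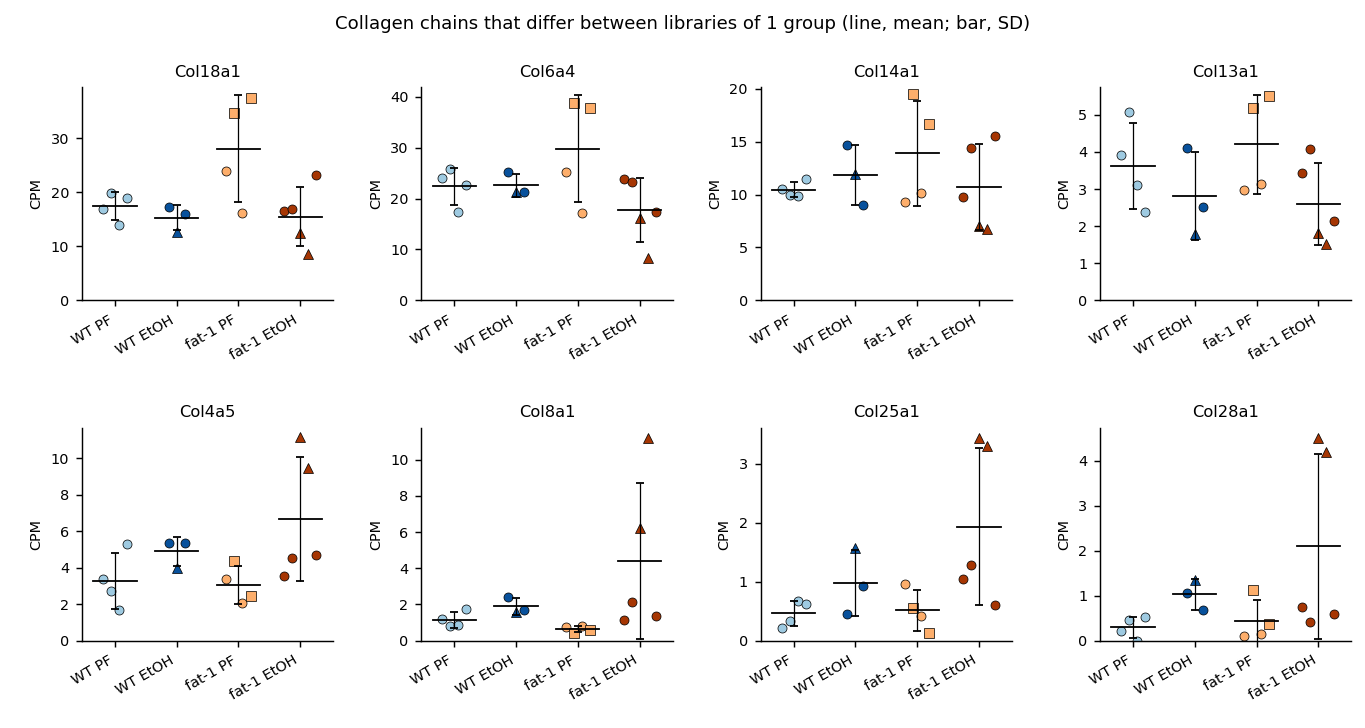
CPM in each mouse of 8 chains whose values differ between libraries of 1 group, with the mean as a line and the SD as a bar. Squares (fat-1 PF 2 and 4, low in ileal markers) are the highest for Col18a1, Col6a4, Col14a1 and Col13a1, and triangles of the fat-1 EtOH group (fat-1 EtOH 3 and 4, high in large intestine markers) are the highest for Col4a5, Col8a1, Col25a1 and Col28a1.

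The genes that process collagen moved in part with the chains. Of 26 tested genes for collagen synthesis and cross-linking, 10 rose and 2 fell in fat-1 EtOH against fat-1 PF mice (38.5% and 7.69%). Over all genes 18.7% rose and 18.8% fell, or 4.27% and 7.59% without the 5 libraries, and the lists that follow are read against these shares. Plod2, a lysyl hydroxylase, rose most among them (3.52 ± 1.3 CPM in PF and 11.3 ± 3.94 CPM in EtOH mice, SD; log2 1.69, SE 0.3, adjusted p = 0.00108), and P4ha1, P4ha2, P3h1, P3h2, Crtap, Serpinh1, Adamts2, Pcolce and Loxl2 rose with it. P4hb, the shared subunit of prolyl hydroxylase, which is also the general protein disulfide isomerase of secretory cells, fell from 4310 ± 1420 to 1230 ± 331 CPM (SD; log2 -1.8, SE 0.25, adjusted p = 0.000315), and Ppib by 0.27 (SE 0.09, adjusted p = 0.0232). Mia3, which helps to export procollagen, did not pass (-0.04, SE 0.14). Leaving out the 5 libraries, 2 of 26 rose and 1 fell (7.69% and 3.85%), near the shares of all genes.

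Of the 14 proteins that bind collagen fibrils, 10 rose and none fell in fat-1 mice (71.4%). Postn (periostin) went from 21.1 ± 7.16 to 102 ± 44.4 CPM (SD; log2 2.28, SE 0.33, adjusted p = 0.000376) and Dcn (decorin) from 84.4 ± 16.9 to 149 ± 46.7 CPM (0.82, SE 0.2, adjusted p = 0.00687), while Sparc did not pass (0.43, SE 0.24, adjusted p = 0.165). Without the 5 libraries 8 of 14 rose (57.1%). Of the 15 non-collagen basement membrane genes, 9 rose and 1 fell (60.0% and 6.67%), and 6 rose and none fell without the 5 (40.0%): Lamb2 (1.08, SE 0.2, adjusted p = 0.0012) and Lamb3 (0.99, SE 0.26, adjusted p = 0.00927), which are laminin chains, were among the former and Agrn (agrin; -0.69, SE 0.23, adjusted p = 0.0277) was the latter. Lama3 did not pass with all 16 libraries (0.87, SE 0.38, adjusted p = 0.0824).

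Of the 8 collagen receptors, Itga1, Itga2, Itgb1 and Ddr2 rose, with 1.34 for Itga2 (SE 0.25, adjusted p = 0.00127) and 0.33 for Itgb1 (SE 0.09, adjusted p = 0.0113), and Ddr1 did not pass (0.18, SE 0.11). Among 10 tested genes for collagen breakdown and its inhibitors, the inhibitors Timp2 (1.05, SE 0.2, adjusted p = 0.00168), Timp3 (1.05, SE 0.19, adjusted p = 0.00103) and Timp4 (2.08, SE 0.64, adjusted p = 0.0212) and the fibroblast protease Fap rose, and the gelatinase Mmp9 fell by 2.42 (SE 0.4, adjusted p = 0.000636). Mmp14 did not pass (-0.01, SE 0.26). In the TGF-beta axis, the main inducer of collagen transcription, 5 of 11 genes rose, with 1.26 for Tgfb2 (SE 0.42, adjusted p = 0.0291), 0.8 for Tgfbr2 (SE 0.18, adjusted p = 0.00334) and 0.38 for Tgfbr1 (SE 0.1, adjusted p = 0.0106), and Ltbp4 did not pass (0.13, SE 0.19). Without the 5 libraries 3 of 8 receptors (37.5%), 1 of 10 breakdown genes and no TGF-beta gene were called higher, beside 4.27% of all genes.

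Smooth muscle markers rose beside the collagens in fat-1 mice, and most fibroblast markers did so as single genes but not as a sum. All 11 smooth muscle genes rose, among them Myh11 (238 ± 37.1 to 685 ± 216 CPM, SD; log2 1.53, SE 0.21, adjusted p = 0.000308), Acta2 (1.3, SE 0.22, adjusted p = 0.000667), Cnn1 (1.81, SE 0.27, adjusted p = 0.000431) and Mylk (0.35, SE 0.12, adjusted p = 0.0334), and 8 of 11 rose without the 5 libraries (72.7%). The ratio of summed fibrillar collagens to summed smooth muscle markers was 0.0781 to 0.135 in fat-1 PF and 0.0418 to 0.114 in fat-1 EtOH mice, and 0.072 to 0.108 in WT PF and 0.0596 to 0.0834 in WT EtOH mice. It overlapped between the diets in both genotypes.

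Of 10 fibroblast genes 8 rose and 1 fell, beside 18.7% and 18.8% of all genes, with Ly6a (1.43, SE 0.32, adjusted p = 0.0039) and Vim (0.81, SE 0.26, adjusted p = 0.0242) among the former, and Fbln1, a fibulin, fell by 3.13 (SE 0.4, adjusted p = 0.000254). Without the 5 libraries 1 rose and 1 fell. Of 9 enteric neuron and glia genes 7 rose, with Gfap (2.27, SE 0.71, adjusted p = 0.0215), Uchl1 (1.05, SE 0.34, adjusted p = 0.0251), Snap25 (1.45, SE 0.35, adjusted p = 0.00603) and Tubb3 (1.36, SE 0.39, adjusted p = 0.0139) as examples, or 77.8%, and 1 of 9 (11.1%) without the 5. None of 9 endothelial genes, Pecam1, Kdr and Lyve1 among them, was called in edgeR (1 at an unadjusted p under 0.05). Of 8 epithelial genes, Krt19 rose (0.59, SE 0.21, adjusted p = 0.0423), Krt20 and Vil1 (-0.88, SE 0.33, adjusted p = 0.0463) fell, and Krt8 and Lgals4 did not pass; 12.5% higher and 25.0% lower are near the shares of all genes. Cidec (-0.98, SE 0.35, adjusted p = 0.038) was the only 1 of 5 adipocyte genes called. Without the 5 no epithelial or adipocyte gene was called in fat-1 mice, and averaged over genotypes 3 of 8 epithelial genes were lower (37.5%, beside 14.7% of all genes). The part of any of these cell types in the collagen values was not tested.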

How the data were processed

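RNA was taken from whole terminal ileum and sequenced as stranded, poly(A)-selected libraries, 1 per mouse, so that replicates were separate mice. The authors aligned reads to mm10 with tophat2 guided by Ensembl annotation and deposited raw counts per gene from htseq, whose strand setting is not given in the sources used here; reads of overlapping genes may therefore be shared. The labels also name bcl2fastq, FastQC 0.10.1 and Cufflinks. All 16 value columns were used and 0 were left out. Totals were 8422645 to 11438539 counts, and counting floors cover counting error only.

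Counts were tested with edgeR 4.0.16 in R 4.3.3 (quasi-likelihood, robust, TMM, filterByExpr) in 1 fit of 16 libraries with a mean per group, Benjamini-Hochberg adjustment over the 13811 genes tested and a threshold of 0.05. The study's own comparison with cuffdiff was not used. CPM used TMM-effective library sizes. CPM per kb used the length of the longest principal transcript, and 26 genes were absent from that annotation. The script was tested on simulated counts.

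Every mouse is given for chains called in a comparison, and every mouse or the range per group for the 3 most abundant chains per class that passed the filter. From the other lists the text takes the 3 most abundant genes and, among those called in fat-1 mice, the largest rise and fall. Further genes are named as members called or not called, after their values were seen. The members and lists were chosen with earlier results of these data known. Alternatives were DESeq2 1.42.0, limma 3.58.1 voom, other scalings and count filters, only the groups compared, a replicate block and each mouse left out. Fits without the libraries that stand apart were added after seeing the data. Python 3.11.15 with pandas 2.3.3, scipy 1.17.1 and matplotlib 3.10.9 was used for the rest.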

Additional observations from a re-analysis of the deposited data

Results flagged for a closer look

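Of 117 groups of values looked at, 5 held a mouse far from the others of its group by Dixon's criterion, which chance gives in about 1 in 20 groups. Col11a2 was at 3.43 CPM in WT PF 4, with the other WT PF mice at 1.13 to 1.33 CPM, and at 3.51 CPM in fat-1 EtOH 5, with the others at 1.8 to 2.13 CPM. Col6a1 was at 32.3 CPM in WT PF 3 against 45.2 to 45.7 CPM. Col6a3 was at 22.8 CPM in WT PF 4 against 15 to 15.9 CPM. Col6a5 was at 1.17 CPM in fat-1 PF 1 against 3.19 to 3.28 CPM. WT PF 4, which stood apart for Col11a2 and Col6a3, also had the lowest summed proximal small intestine markers of the 8 PF mice (1850 CPM).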

How the results depend on the processing

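In fat-1 mice the 12 calls became 5 with limma voom (4 higher, 1 lower) and 7 without the 5 libraries that stand apart, and ranged from 7 to 14 when 1 mouse was left out, with 7 without fat-1 PF 4 or fat-1 EtOH 3. Upper quartile scaling gave 16 higher and 1 lower, against 10 and 2. It moved the median of all genes from 0.05 to 0.2 and called 28.3% of all genes higher and 12.7% lower. In WT mice the 0 calls became 1 with DESeq2, 11 with limma voom, 1 with only the groups compared and 3 without the 5 libraries, and were 0 to 0 with 1 mouse left out. Averaged over genotypes the 14 calls ranged from 9 to 16, with 9 without WT PF 1 or WT EtOH 1. The genotype comparisons and the interaction gave 0 to 0 calls with 1 mouse left out and 0 in every alternative run. The share of all genes is not given for limma voom in fat-1 mice or for the fits with 1 mouse left out. Nor is it given for only the groups compared, and none of these counts is read as a result about collagens.

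Col6a4 turned to 0.03 in fat-1 mice and 0.04 averaged over genotypes without the 5 libraries, and in WT mice, where it was 0.01, it ranged from -0.09 (without WT PF 3) to 0.09 with 1 mouse left out and was -0.07 without WT EtOH 1. The cause was not tested. Leaving out 1 mouse ended the fat-1 call of Col18a1 without fat-1 PF 2 (-0.73, adjusted p = 0.0758), fat-1 PF 4 (-0.67, adjusted p = 0.0862) or fat-1 EtOH 3 (-0.78, adjusted p = 0.053), and that of Col6a3 without fat-1 PF 1 (0.58, adjusted p = 0.0555) or fat-1 PF 3 (0.53, adjusted p = 0.0684). In fat-1 mice the call of Col6a4 was lost in 13 of 16 such fits (adjusted p from 0.0527 to 0.153), that of Col3a1 in 9 and those of Col25a1 and Col4a5 in 5 each; averaged over genotypes, that of Col1a1 was lost in 11, of Col4a5 in 9, of Col4a1 in 8, of Col28a1 in 7 and of Col25a1 in 3. Without WT EtOH 1 the averaged calls of Col3a1 (0.33, adjusted p = 0.0598) and Col5a1 (0.47, adjusted p = 0.0524) were lost. Col12a1, Col1a2 and Col5a2 were called in fat-1 mice in all 27 alternatives.

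Replicate numbers did not pair the mice: deviations of mice with the same number had a mean correlation of -0.0225 over 21 pairs, against 0.00703 over 74 other pairs. With the replicate number as a block, 10 chains were called in fat-1 mice (9 higher, 1 lower; 16.8% and 17.6% of all genes), 0 in WT mice (0.0652% in each direction) and 15 averaged over genotypes (14 higher, 1 lower; 17.7% and 17.3%).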
